A study of Homo sapiens with 24 samples.

Results

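The protocadherins are cell surface proteins of the cadherin superfamily, and their RNA levels were followed in H1, H9 and HSF1, which are 3 established lines of human embryonic stem cells. The members are the genes whose symbol in the array annotation begins with PCDHA, PCDHB or PCDHG, or with PCDH and a number, on probe sets that name 1 gene. PCDH11X was left out by that rule, as were the pseudogenes PCDHB17P, PCDHB18P and PCDHGB8P and the non-coding PCDH10-DT. This gave 43 genes of 19775 on the array, with 68 of the 54675 probe sets. Of these, 33 belong to the 3 gene clusters on chromosome 5 (6 alpha, 15 beta and 12 gamma genes) and 10 are non-clustered. The RefSeq gene table holds 64 protein-coding genes of the same names, so 21 were not followed: 15 have probe sets shared with other genes and 6, all gamma, are not in the annotation used here. The lines were grown feeder-supported (FS) with the inhibitor, FS with DMSO, feeder-free (FF) with the inhibitor and FF with DMSO, with 1 array per line in each group. Feeders were mouse embryonic fibroblasts (MEFs), and the inhibitor was AZD3965 at 250 nM for 5 days, which blocks the lactate transporter MCT1. A further 12 arrays held feeder-free H9 and HSF1 cells in MEF-conditioned medium (CM) or unconditioned medium (UM), with 3 biological replicates per line and medium. For CM the sample labels state 5 days, whereas the design text of the study states 24 hours. The question of the study was whether feeders, and factors that MEFs secrete, change the metabolism of these cells.

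Protocadherins bind like molecules on neighbouring cells. In the alpha and gamma clusters each variable exon has its own promoter and is spliced to constant exons shared by the whole cluster, whereas a beta gene has a single coding exon and no constant part. In neurons each cell uses a few of these promoters, chosen by the DNA-binding protein CTCF, the cohesin ring and DNA methylation, and the resulting set of proteins lets a neuron tell its own branches from those of other neurons. The non-clustered genes have separate promoters on several chromosomes and are known for adhesion and cell sorting in embryos and for wiring in the nervous system.

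Promoter sequences are shown to set out how alike the beta genes are just before their start. RefSeq windows of 250 bases before the transcription start (build GRCh38.p14) were held for 39 of the 43 members, and not for PCDHB6, PCDHB11, PCDHGC5 and PCDH10. The run GGTGGCGCT, picked after these sequences were read because so many beta genes share it, stood on the coding strand in 11 of 13 beta promoters. It was found in none of the 6 alpha, 11 gamma and 9 non-clustered promoters held, on either strand, and in 117 of all 27305 promoters (0.428%). Its first base lay 16 to 84 bases before the start, with a median of 67. PCDHB1 and PCDHB8 were the beta genes without it. The last 4 letters, CGCT, are the known core of the conserved element of clustered protocadherin promoters. On either strand they stood in 64.3% of all promoters. By class they stood in 12 of 13 beta, 11 of 11 gamma, 5 of 6 alpha and 8 of 9 non-clustered promoters, so they are not particular to beta genes. Shorter stretches around the run are shown for 6 beta genes that passed the test in a comparison described further on and, last, for PCDHB13, which did not pass in any of them. They lie on the plus strand of chromosome 5 at chr5:141094535-141094575, chr5:141100384-141100424, chr5:141135170-141135205, chr5:141182301-141182341, chr5:141223254-141223294, chr5:141245305-141245345 and chr5:141213856-141213896, and capitals mark the shared run.
PCDHB2: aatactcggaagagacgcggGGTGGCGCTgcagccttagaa
PCDHB3: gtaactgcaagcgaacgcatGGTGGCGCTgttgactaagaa
PCDHB5: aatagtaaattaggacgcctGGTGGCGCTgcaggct
PCDHB16: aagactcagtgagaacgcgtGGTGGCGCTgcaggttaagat
PCDHB14: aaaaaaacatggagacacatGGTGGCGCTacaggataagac
PCDHB15: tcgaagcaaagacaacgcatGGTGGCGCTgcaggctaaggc
PCDHB13: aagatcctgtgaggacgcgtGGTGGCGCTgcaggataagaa
The shared run was present in genes that were lower on feeders (PCDHB14, PCDHB15 and PCDHB16). It was also present in PCDHB4, PCDHB9, PCDHB12 and PCDHB13, which did not pass there. Any link between the run and these differences was not tested.

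Values are RMA log2 intensities as deposited, in which 1 unit is a doubling, and the brightness of different probes is not comparable between genes. The array medians lay between 6.09 and 6.35. Of the 43 members, 15 were above their array's median on all 24 arrays, 13 on none and 15 on some. Those above it throughout were 6 of 15 beta genes, 3 of 12 gamma genes, 2 of 6 alpha genes and 4 of 10 non-clustered genes. Among the non-clustered genes, PCDH18, which in mouse binds the adaptor Dab1, ranged from 8.21 to 11.76 over the 24 arrays. PCDH1, known from airway epithelium, ranged from 7.89 to 9.40 and PCDH7 from 5.31 to 12.68. The beta genes with the highest means were PCDHB5 (6.67 to 10.01), PCDHB2 (6.91 to 9.91) and PCDHB3 (7.76 to 8.74). For the gamma cluster they were PCDHGB5 (6.72 to 7.74), PCDHGA9 (6.26 to 7.88) and PCDHGB7 (6.13 to 6.74). For the alpha cluster they were PCDHA10 (6.32 to 7.75), PCDHA5 (6.28 to 7.32) and PCDHAC1 (6.04 to 6.79). PCDH7, PCDHB2 and PCDHB5 had wide ranges, and those of the alpha and gamma genes were narrower. A gene was tested in an experiment if 3 or more of its 12 arrays exceeded 5 on the log2 scale, and 37 members did so in each. PCDHA2, PCDHB7, PCDHB8, PCDHGB6, PCDHGC5 and PCDH15 did not pass this filter.

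**Figure D1:**
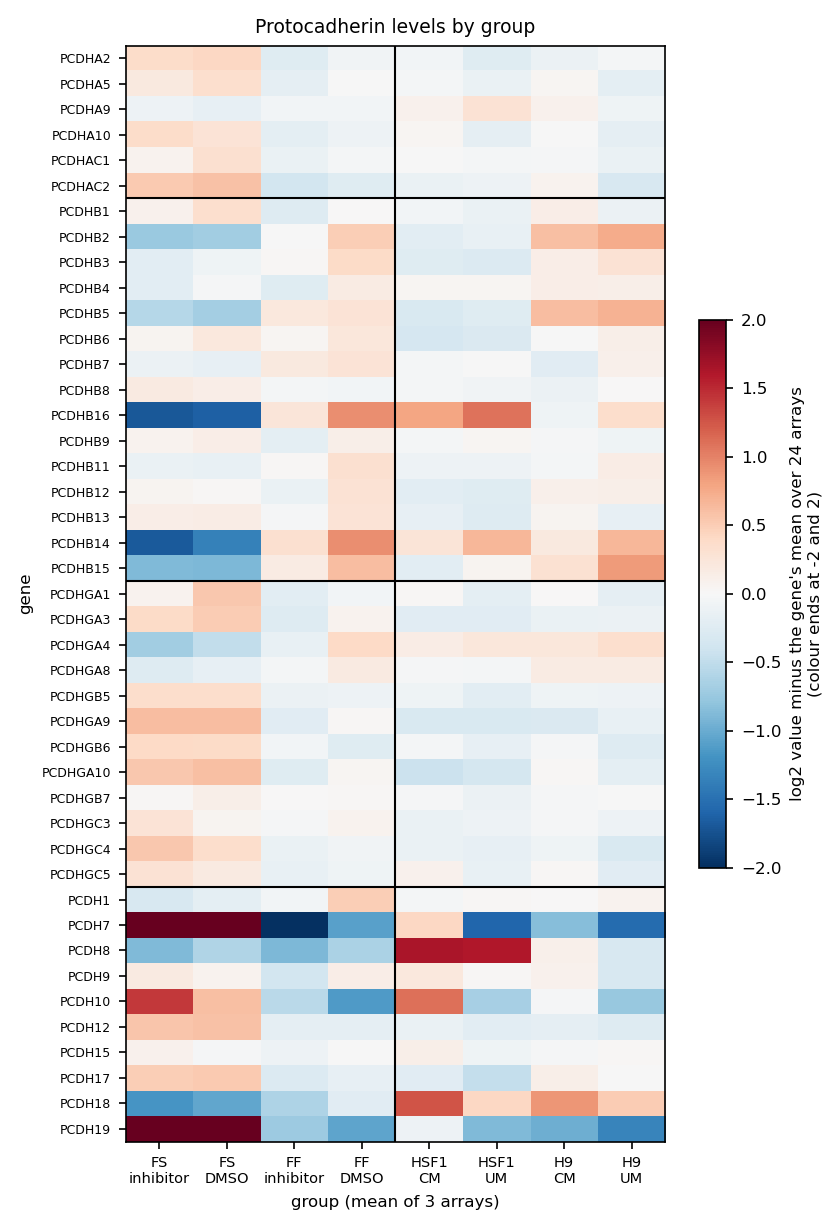
Mean log2 value of each of the 43 protocadherins in the 8 groups (3 arrays each), minus the gene's mean over the 24 arrays, with alpha, beta and gamma genes in order along chromosome 5 and the non-clustered genes below. PCDH7 and PCDH19 were high in both feeder-supported groups, PCDHB14, PCDHB15 and PCDHB16 were low there, and PCDH8 was high in the HSF1 medium arrays.

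Some arrays stood apart. The 2 FS arrays of HSF1 correlated with the other 22 at r = 0.860 to 0.961, against 0.948 to 0.998 among those 22. The 3′ minus 5′ difference of the ACTB control probes, a sign of RNA quality, was -0.31 to 1.19 in FS arrays and 0.47 to 1.17 in FF arrays, and reached 3.25 in UM arrays of H9. The 2 FS arrays of HSF1 had the lowest values, -0.15 and -0.31. The 8 pluripotency markers measured averaged 11.85 to 12.54 in FS arrays and 12.64 to 12.87 in FF arrays of the inhibitor experiment. The 20 fibroblast and mesenchymal markers averaged 8.43 to 9.55 in FS arrays, against 7.32 to 8.47 in FF arrays. The median gene shifted by -0.19 between FS and FF cells with DMSO, by 0.04 after quantile normalization and by -0.30 after arrays were set to a common median.

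On feeders the non-clustered PCDH7 and PCDH19 rose most, and the beta genes PCDHB2, PCDHB14, PCDHB15 and PCDHB16 fell with DMSO. Among the members as measured, these 4 were not a run of neighbours, since PCDHB9, PCDHB11, PCDHB12 and PCDHB13 lie between PCDHB16 and PCDHB14 and did not pass. However, PCDHB11, PCDHB12 and PCDHB13 have probe sets marked by the maker as able to hybridise with related transcripts. PCDHB10 is not a member, and a probe set it shares with PCDHB9 differed by -2.48 with DMSO. With DMSO, 12 of the 37 tested protocadherins passed an adjusted p of 0.05 in limma between FS and FF cells, 7 higher and 5 lower, against 39.3% of all 17218 genes tested (15.2% higher and 24.1% lower). The members' share of 32.4% was near that background. Without the line block 7 members passed, with the ACTB difference as a covariate 5, without H1 6 and without H9 5, whereas array weights gave 23. The shares of all genes in these other fits are not given here, so these counts say nothing particular to protocadherins. By class, 5 of 9 non-clustered genes were higher and 0 lower, 4 of 13 beta genes were lower and 0 higher, 1 of 5 alpha genes was higher, and the gamma genes had 1 of 10 in each direction. The beta share of 30.8% stands against 24.1% of all genes lower. These counts include PCDHB14, PCDHB16, PCDHAC2 and PCDHGA4, which passed the level filter only through arrays where they were higher and had to differ. The shares by class are therefore no support for a class effect. The median difference over all members of a class was -0.44 for beta, 0.37 for alpha, 0.43 for gamma and 0.36 for non-clustered genes, against -0.04 for all genes.

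PCDH7 codes for a protocadherin of the delta type known from adhesion of the frog ectoderm. Its log2 values were 10.82, 11.78 and 12.39 in FS cells with DMSO (H1, H9 and HSF1 in this order here and below), against 6.97, 7.99 and 6.53 in FF cells with DMSO. With the inhibitor they were 11.24, 11.35 and 12.68 in FS cells and 5.77, 5.31 and 6.81 in FF cells. Every FS array was above every FF array. The difference was 4.50 (SE 0.46, adjusted p = 0.000305) with DMSO and 5.79 (SE 0.46, adjusted p = 4.36e-05) with the inhibitor, 22.6-fold and 55.2-fold on the linear scale. These values come from the brightest of 5 PCDH7 probe sets, and the 5 did not agree: with DMSO 3 had a positive difference and 2 a negative one, from -0.25 to 4.50, and their mean gave 1.05. With the inhibitor 4 of 5 were positive.

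PCDH19, also of the delta type and a gene whose loss causes a form of epilepsy, has 1 probe set. Its values were 9.75, 10.37 and 10.68 in FS cells with DMSO and 6.18, 6.85 and 6.89 in FF cells. With the inhibitor they were 9.79, 10.12 and 10.61 in FS cells and 6.12, 6.95 and 7.80 in FF cells. The FS and FF arrays did not overlap. PCDH19 differed by 3.63 (SE 0.22, adjusted p = 6.82e-06) with DMSO and 3.22 (SE 0.22, adjusted p = 1.55e-05) with the inhibitor, 12.3-fold and 9.31-fold. In bulk RNA, fewer cells of a type and less RNA per cell cannot be told apart, here and for the genes below.

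PCDH10, which guides axons in mouse, varied more between lines. With DMSO it stood at 7.80, 9.32 and 6.0 in FS cells, against 6.59, 5.63 and 5.73 in FF cells. With the inhibitor it stood at 8.63, 9.60 and 7.35 in FS cells and 6.66, 6.01 and 7.06 in FF cells. H9 showed the widest gap, and HSF1 the narrowest, with its FS value under DMSO inside the FF range. The difference was 1.72 (SE 0.62, adjusted p = 0.0468) with DMSO and 1.95 (SE 0.62, adjusted p = 0.028) with the inhibitor. Without the 2 FS arrays of HSF1 it was 2.63 (adjusted p = 0.00397) and 2.60 (adjusted p = 0.00456). Other alternatives weakened it: the call was lost in 6 of 13 with DMSO, with values down to 0.74, and in 5 of 13 with the inhibitor, with values down to 1.04. These included no line block, H1 left out and H9 left out. All 4 PCDH10 probe sets were positive in both comparisons.

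PCDH12, known from endothelial cells, rose by 0.77 (SE 0.21, adjusted p = 0.0205) with DMSO and 0.73 (SE 0.21, adjusted p = 0.0198) with the inhibitor. The PCDH12 call was lost in 4 of 13 alternatives with DMSO (adjusted p up to 0.423) and in 5 of 13 with the inhibitor, each line left out among them (adjusted p up to 0.267). PCDH17, known from synapses, rose by 0.69 (SE 0.21, adjusted p = 0.0297) and 0.76 (SE 0.21, adjusted p = 0.0183). For PCDH17 only 2 of 3 probe sets were positive under either treatment. The PCDH17 call with DMSO was lost in 7 of 13 alternatives, each line left out among them, with values down to 0.10 (adjusted p up to 0.614). With the inhibitor it was lost in 4 of 13. The mean of all probe sets was among the losses under both treatments. PCDH9 rose with the inhibitor, by 0.56 (SE 0.21, adjusted p = 0.0451), and with DMSO its difference was -0.07 (SE 0.21). The PCDH9 call was lost in 8 of 11 alternatives, both rescalings and each line left out among them (adjusted p up to 0.343). Among the tested non-clustered genes, PCDH1, PCDH8 and PCDH18 did not pass in either comparison. PCDH18 had 9.55, 10.07 and 8.50 in FS cells with DMSO and 10.02, 10.35 and 10.21 in FF cells, a difference of -0.82 (SE 0.42), with the lowest value in HSF1 on feeders.

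**Figure D2:**
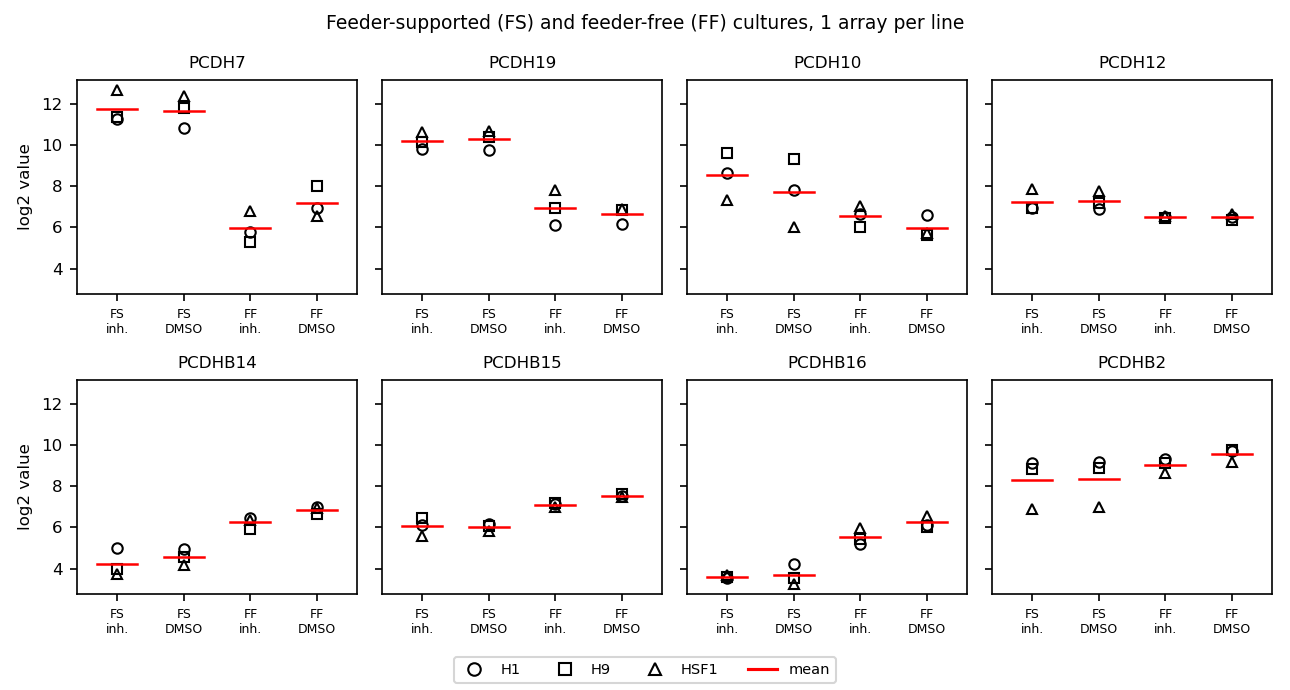
Log2 values on each array for 4 non-clustered genes (top) and 4 beta genes (bottom) in feeder-supported (FS) and feeder-free (FF) cells with inhibitor or DMSO; symbols mark the line and red bars the mean of 3 lines. PCDH7 and PCDH19 lay above their FF values on every FS array and PCDHB14, PCDHB15 and PCDHB16 below them, while PCDHB2 was lowest in HSF1 on feeders.

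Of the beta genes, PCDHB14, PCDHB15 and PCDHB16 were lower on feeders in every line and under both treatments. PCDHB16 read 4.25, 3.53 and 3.26 in FS cells with DMSO, against 6.12, 6.03 and 6.58 in FF cells, and 3.55, 3.58 and 3.71 in FS cells with the inhibitor, against 5.22, 5.45 and 5.98 in FF cells. It fell by 2.56 with DMSO (SE 0.27, adjusted p = 0.000371) and by 1.94 with the inhibitor (SE 0.27, adjusted p = 0.0012). PCDHB14 read 4.94, 4.56 and 4.19 in FS cells with DMSO and 6.99, 6.65 and 6.94 in FF cells, and 4.99, 3.99 and 3.73 in FS cells with the inhibitor and 6.48, 5.92 and 6.34 in FF cells. Its differences were -2.30 (SE 0.23, adjusted p = 0.000219) and -2.01 (SE 0.23, adjusted p = 0.000366). On feeders both genes were under a log2 value of 5 on every array, near the low end of the scale. They passed the level filter only through the FF arrays, where they were higher, so they had to differ, and the sizes above describe these readings with no fold given. PCDHB15 read 6.19, 6.06 and 5.82 in FS cells with DMSO and 7.53, 7.61 and 7.48 in FF cells, with differences of -1.52 (SE 0.17, adjusted p = 0.000567) with DMSO and -1.04 (SE 0.17, adjusted p = 0.00294) with the inhibitor. Each of these 3 genes has 1 probe set, and their FS and FF arrays did not overlap. The arrays also did not overlap for PCDHGA8, PCDHGA9, PCDHGA10 and PCDH12. How many of all genes showed no overlap was not counted.

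PCDHB2 differed by -1.18 (SE 0.35, adjusted p = 0.025) with DMSO, and its -0.74 (SE 0.35) with the inhibitor did not pass (adjusted p = 0.0926). Its values were 9.18, 8.90 and 6.99 in FS cells with DMSO, against 9.69, 9.73 and 9.19 in FF cells, so HSF1 on feeders lay lowest. Without the 2 FS arrays of HSF1 the difference with DMSO was -0.68 (adjusted p = 0.00263). Other alternatives weakened it, and the call with DMSO was lost in 5 of 13, with values as small as -0.43 (adjusted p up to 0.562). These included quantile normalization, the ACTB covariate, no line block, H1 left out and H9 left out. PCDHB5 showed the same low HSF1 values on feeders, 9.53, 9.04 and 6.67 in FS cells with DMSO and 10.01, 9.09 and 9.02 in FF cells, and its -0.96 (SE 0.43) did not pass (adjusted p = 0.0866). The other 8 tested beta genes had differences of -0.47 (PCDHB3) to 0.33 (PCDHB1) with DMSO, and none of them passed under either treatment. A probe set shared by PCDHB9 and PCDHB10 fell by 2.48 with DMSO and by 2.34 with the inhibitor (adjusted p = 9.38e-05 and 0.000116 over all probe sets), whereas the probe set of PCDHB9 alone stood at 0.01 and 0.26. The 4 beta calls with DMSO were all among the 10 beta genes whose probe set has a plain name. The other 5 beta genes have probe sets marked by the maker as able to hybridise with related transcripts, which may blend neighbours, and 0 of them passed.

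The median FS minus FF difference over the 15 beta genes was -0.48 in H1, -0.48 in H9 and -0.02 in HSF1 with DMSO, and -0.26, -0.18 and 0.33 with the inhibitor. Alpha and gamma medians were highest in HSF1, at 0.78 and 0.71 with DMSO, against 0.22 and 0.09 in H1 and 0.20 and 0.23 in H9. The FS arrays of HSF1 are those that stood apart, and the difference between lines in these medians was not tested.

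Among the alpha and gamma genes, PCDHAC2, a C-type alpha gene, rose by 0.83 (SE 0.16, adjusted p = 0.00653) with DMSO and 0.89 (SE 0.16, adjusted p = 0.00411) with the inhibitor. It read 5.33, 5.88 and 5.56 in FS cells with DMSO and 4.76, 4.87 and 4.66 in FF cells, without overlap. All FF values of PCDHAC2 were below 5 (4.57 to 4.87), so it passed the level filter only through FS arrays and had to differ, and it was above its array's median on 0 of 24 arrays. PCDHGA10 rose by 0.56 (SE 0.18, adjusted p = 0.0304) and 0.78 (SE 0.18, adjusted p = 0.00957), and the call with DMSO was lost in 6 of 13 alternatives, each line left out among them (adjusted p up to 0.468). PCDHGA4 moved the other way, at 4.95, 4.96 and 4.90 in FS cells with DMSO and 5.53, 5.76 and 6.21 in FF cells, a difference of -0.90 (SE 0.19, adjusted p = 0.0092) with DMSO and -0.55 (SE 0.19, adjusted p = 0.0379) with the inhibitor. All 6 FS values of PCDHGA4 were below 5 (4.69 to 4.96), so it too passed the filter only through arrays where it was higher, and its call with the inhibitor was lost in 7 of 12 alternatives. The 3 probe sets that each list all 15 alpha genes differed by -0.26, -0.30 and -0.37 with DMSO and none passed. The probe sets of PCDHAC2 and PCDHGA10 carry the maker's mark for shared or related transcripts, and that of PCDHGA4 does not.

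With the inhibitor, FS minus FF gave 17 of 37 members, 13 higher and 4 lower, against 47.1% of all genes (19.3% higher and 27.8% lower). Without the line block 11 passed, with the ACTB covariate 5, without H1 4 and without H9 8, again without the shares of all genes in these fits. The 4 lower were PCDHB14, PCDHB15, PCDHB16 and PCDHGA4. Of the 17, PCDHB14, PCDHB16, PCDHGA4 and PCDHAC2 passed the level filter only through arrays where they were higher. By class 6 of 9 non-clustered genes were higher, 3 of 13 beta genes lower, and of 10 gamma genes 5 were higher and 1 lower. Beside those given above, PCDHGA9 (0.84), PCDHGC4 (0.68), PCDHGA3 (0.63), PCDHA10 (0.57) and PCDHGB5 (0.47) were higher. All 5 were highest in HSF1 on feeders, on the arrays that stood apart, with 6.63, 6.79 and 7.75 for PCDHA10 in FS cells and 6.32, 6.54 and 6.62 in FF cells. Without the 2 FS arrays of HSF1, PCDHA10 stood at 0.29 (adjusted p = 0.0841) and PCDHGB5 at 0.35 (adjusted p = 0.0646).

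**Figure D3:**
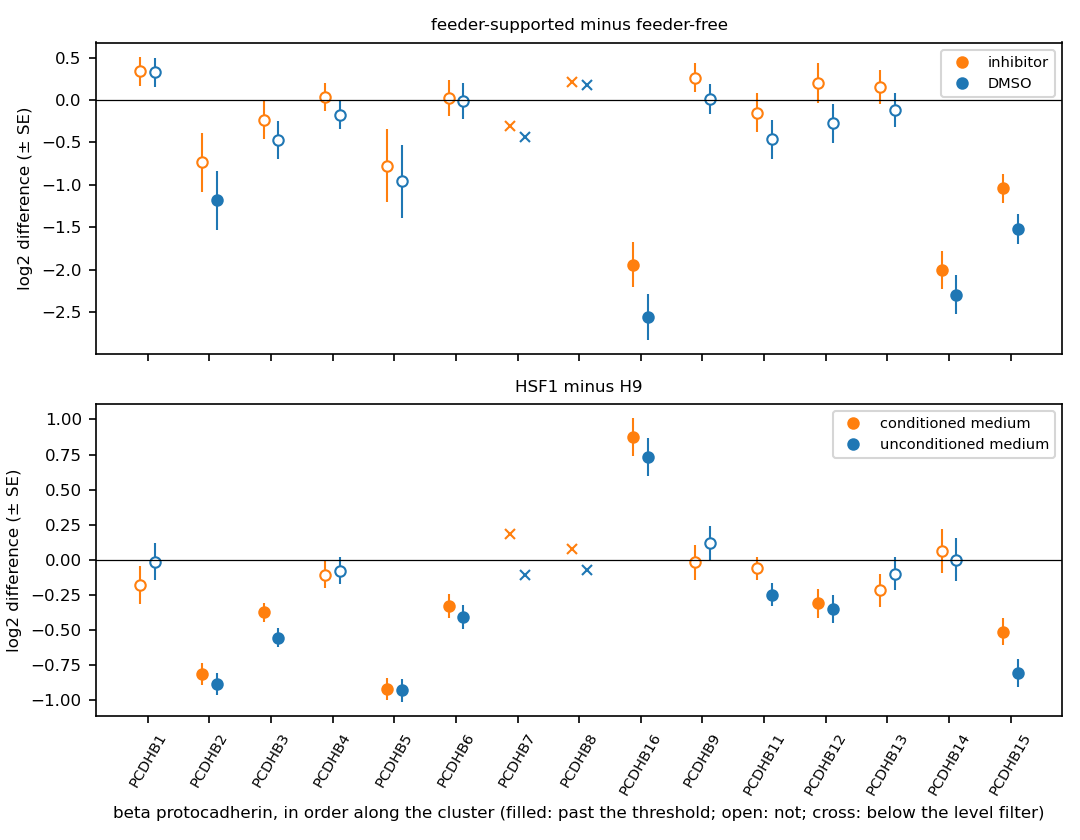
Log2 difference with its standard error for the 15 beta genes in order along the cluster, between feeder-supported and feeder-free cells (top) and between HSF1 and H9 in either medium (bottom); filled points passed the threshold, open points did not, and crosses were below the level filter. PCDHB14, PCDHB15 and PCDHB16 were lower on feeders, and PCDHB16 was the only beta gene higher in HSF1 that passed.

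Regulators and partners were read beside the members. Of 23 chromatin genes known to act on the clusters, 9 were lower and 1 was higher in FS cells with DMSO (median -0.65, against -0.19 for all genes tested and 24.1% of them lower and 15.2% higher). With the inhibitor 12 were lower and 2 higher (median -0.71, against -0.20, with 27.8% lower and 19.3% higher). With DMSO the lower ones included EHMT2 (-1.31), CTCFL (-1.10), DNMT1 (-0.65), SETDB1 (-0.69), CTCF (-0.68) and EHMT1 (-1.09). SETDB1, EHMT1 and EHMT2 are histone methyltransferases, DNMT1 maintains DNA methylation and CTCFL is the germ line relative of CTCF. NIPBL (0.66), which loads cohesin, was the higher one. Of 17 cytoplasmic partners and processing enzymes, 1 was higher with DMSO, ADAM10 (0.80), a protease that cleaves protocadherins, and 5 were lower, among them WASF3 (-1.48), CYFIP2 (-1.18), DAB1 (-0.95) and PTK2 (-0.92). Among 25 other cadherin superfamily genes 6 were higher and 6 lower, the lower ones at about the share of all genes (24.1% lower and 15.2% higher). CDH11, a cadherin of mesenchymal cells, changed most (4.70), and CELSR2 (-1.08), CELSR3 (-1.16) and FAT3 (-1.55) were lower.

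Markers of other cell types moved with the feeder comparison. With DMSO 9 of 20 fibroblast and mesenchymal markers were higher and 0 lower, against 15.2% and 24.1% of all genes, with TWIST1 at 8.68 ± 0.87 in FS cells and 4.94 ± 0.0969 in FF cells and IGFBP7 at 10.81 ± 0.42 and 7.86 ± 0.38 in the same order (SD, n = 3 each). With DMSO COL1A1 (0.77), PDGFRA (0.10), POSTN (-0.44) and LUM (0.92) did not pass. With the inhibitor 7 of the 20 were higher and 3 lower, against 19.3% and 27.8% of all genes. Mesoderm and streak markers were higher for 3 of 8 with DMSO and 6 of 8 with the inhibitor, with EOMES at 2.64 and 3.63. Neural markers gave 4 higher and 3 lower of 12, endothelial markers 4 higher and 2 lower of 10, and pluripotency markers 0 higher and 4 lower of 8, all with DMSO. Against the same shares of all genes, the lower neural and endothelial markers were near the background. The labels do not say whether feeder cells were removed before RNA isolation, and the part of mouse RNA or of other cells in the protocadherin differences was not tested.

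No member passed the threshold for the inhibitor itself. In FS cells limma called 0 of 37, against 0.00581% of all genes, and 0 members had an unadjusted p under 0.05. The smallest p belonged to PCDHGA1 (difference -0.47, SE 0.23) and PCDHB1 (-0.25, SE 0.17) among the lower and to PCDH10 (0.82, SE 0.62) and PCDHGC3 (0.21, SE 0.17) among the higher. In FF cells limma called 0 of 37, against 0.842% of all genes (0.604% higher and 0.238% lower). There 7 members had an unadjusted p under 0.05, all of them lower, against 7.74% of all genes in either direction. Over all 43 members 37 were below 0 in FF cells, with a median of -0.18, against -0.02 for all genes. For the beta genes 14 of 15 were below 0, with a median of -0.31. All members were read on the same FF arrays, so these signs are not independent of each other.

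PCDHGA4 read 4.87, 5.34 and 5.62 in FF cells with the inhibitor, against 5.53, 5.76 and 6.21 with DMSO, lower in each line, with a difference of -0.56 (SE 0.19, adjusted p = 0.35). PCDHB14 differed by -0.61 (SE 0.23, adjusted p = 0.423) and PCDH7 by -1.20 (SE 0.46, adjusted p = 0.47). The most positive by p were PCDH19 (0.32, SE 0.22) and PCDH10 (0.59, SE 0.62). Without the 2 FS arrays of HSF1, which enter the shared estimate of the spread, 6 members passed in FF cells and all were lower. Of all genes 9.67% passed in that fit, a share not split by direction here. The 6 members were PCDHB16 (-0.69), PCDHB14 (-0.61), PCDHGA4 (-0.56), PCDH1 (-0.54), PCDHB2 (-0.50) and PCDHB15 (-0.45). The test of whether the inhibitor acted differently in FS and FF cells called 0 of 37 members, against 0.0174% of all genes, and 0 had an unadjusted p under 0.05. Its smallest p belonged to PCDH9 (0.63, SE 0.29) and PCDH7 (1.29, SE 0.66) among positive differences and to PCDH19 (-0.41, SE 0.32) and PCDHGA1 (-0.32, SE 0.32) among negative ones.

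Conditioned medium raised 4 non-clustered genes in both lines, without feeder cells in the dish. In H9, 6 of 37 members passed, 4 higher and 2 lower, against 16.4% of all 16572 genes tested (3.45% higher and 13% lower). In HSF1, 4 of 37 passed and all were higher, against 18.3% of all genes (8.57% higher and 9.78% lower). The genes that rose in both were PCDH7, PCDH10, PCDH18 and PCDH19, which were 4 of the 9 tested non-clustered genes. No clustered gene was higher in either line at this threshold.

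PCDH7 read 8.45, 8.73 and 8.78 in HSF1 with CM, against 6.43, 6.71 and 6.83 with UM, a difference of 2.0 (SE 0.14, adjusted p = 6.34e-08). In H9 it read 7.13, 7.66 and 7.38 with CM and 6.46, 6.77 and 6.86 with UM, a difference of 0.69 (SE 0.14, adjusted p = 0.00368). All 5 PCDH7 probe sets were positive in HSF1, from 0.32 to 2.00, and 4 of 5 in H9. PCDH10 read 8.15, 8.10 and 8.41 in HSF1 with CM and 6.42, 6.54 and 6.37 with UM, and 7.10, 7.13 and 7.05 in H9 with CM and 6.38, 6.22 and 6.47 with UM. Its differences were 1.77 (SE 0.0954, adjusted p = 3.01e-09) in HSF1 and 0.74 (SE 0.0954, adjusted p = 7.75e-05) in H9. The CM and UM arrays of a line did not overlap for PCDH7 or PCDH10. How many of all genes showed no overlap was not counted, here and for the genes below.

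PCDH18 read 11.69, 11.55 and 11.76 in HSF1 with CM and 10.73, 10.88 and 10.87 with UM (0.84, SE 0.075, adjusted p = 9.4e-07), and 11.30, 11.37 and 11.24 in H9 with CM and 10.78, 10.98 and 11.0 with UM (0.38, SE 0.075, adjusted p = 0.00263). PCDH19 read 7.56, 7.77 and 7.41 in HSF1 with CM and 6.72, 6.69 and 6.98 with UM (0.78, SE 0.11, adjusted p = 0.000105), and 6.68, 6.72 and 6.76 in H9 with CM and 6.18, 6.50 and 6.42 with UM (0.35, SE 0.11, adjusted p = 0.0402). Both genes were higher on every CM array than on any UM array of the same line. In H9 the PCDH19 call was lost in 10 of 22 alternatives, each H9 CM array left out among them (adjusted p up to 0.113). PCDH18 rose with conditioned medium and did not pass on feeders, in separate experiments that were not tested against each other.

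**Figure D4:**
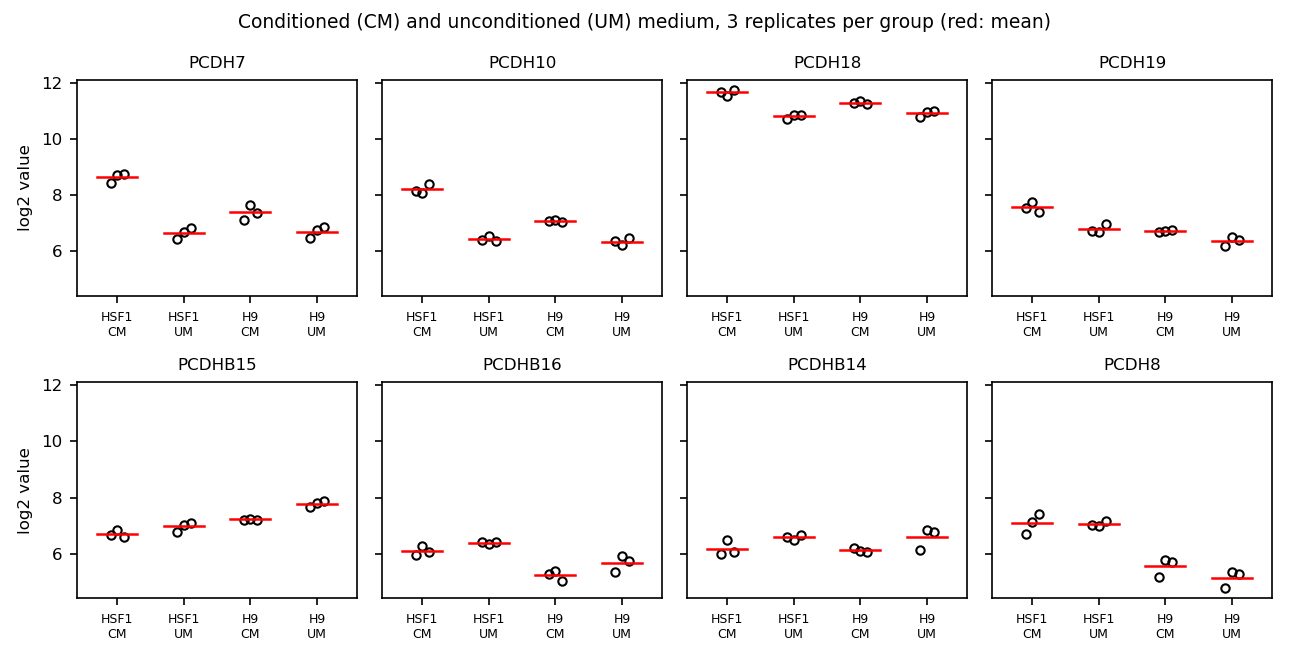
Log2 values of 8 protocadherins on each array in HSF1 and H9 cells with conditioned (CM) or unconditioned (UM) medium, 3 replicates per group with the mean in red. PCDH7 and PCDH10 showed wider gaps between CM and UM in HSF1 than in H9, and PCDH8 was higher in HSF1 than in H9 in both media.

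The response was larger in HSF1 than in H9 for 3 of 37 members (8.11%), tested as the difference of the 2 differences. This share was near that of all genes, 7.73% in either direction (5.65% higher and 2.08% lower). PCDH7 gave 1.30 (SE 0.20, adjusted p = 0.00155), PCDH10 1.03 (SE 0.14, adjusted p = 0.000392) and PCDH18 0.46 (SE 0.11, adjusted p = 0.0168). PCDH19 stood at 0.43 (SE 0.16, adjusted p = 0.0991) and did not pass. The most negative by p were PCDHAC2 (-0.41, SE 0.18) and PCDHA9 (-0.39, SE 0.20), which did not pass.

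Of the beta genes that were lower on feeders, PCDHB15 and PCDHB16 were lower with CM in H9, and PCDHB14 (-0.47, SE 0.16, adjusted p = 0.05) did not pass. PCDHB15 read 7.21, 7.25 and 7.21 in H9 with CM, against 7.66, 7.81 and 7.88 with UM, a difference of -0.56 (SE 0.0981, adjusted p = 0.00116). PCDHB16 read 5.28, 5.39 and 5.03 with CM and 5.34, 5.91 and 5.74 with UM (-0.43, SE 0.14, adjusted p = 0.0399). In H9 2 UM arrays had the high ACTB difference, 3.25 and 2.89. Without them PCDHB15 stood at -0.44 (adjusted p = 0.0954) and PCDHB16 at -0.11 (adjusted p = 0.811), an alternative chosen after the data were seen. In HSF1 with CM, PCDHB15 differed by -0.27 (SE 0.0981, adjusted p = 0.0734), PCDHB16 by -0.29 (SE 0.14, adjusted p = 0.153) and PCDHB14 by -0.41 (SE 0.16, adjusted p = 0.082). The probe sets that list all 15 alpha genes differed by -0.54 (adjusted p = 0.000504), -0.34 (adjusted p = 0.0441) and -0.47 (adjusted p = 0.245) in HSF1 with CM.

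Among the other cadherin superfamily genes, CDH2 and FAT4 rose with CM in both lines, CDH2, the neural and mesenchymal cadherin, by 0.80 in HSF1 and 0.61 in H9, and FAT4 by 0.78 and 0.86. In total 9 of 23 tested were higher and 2 lower in HSF1 (8.57% and 9.78% of all genes), and 3 higher and 3 lower in H9 (3.45% and 13% of all genes). Of the chromatin genes 1 was higher and 3 lower in HSF1, and 1 higher and 2 lower in H9. Fibroblast markers were higher for 1 of 17 and lower for 4 in HSF1, and higher for 3 and lower for 5 in H9, and their mean level was 7.49 to 7.59 with CM and 7.61 to 7.65 with UM in HSF1. DAB1, the adaptor that binds PCDH18 in mouse, rose by 0.66 in HSF1 and 0.38 in H9.

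HSF1 and H9 differed at many beta genes in both media. In UM, 11 of 37 members passed between HSF1 and H9, 3 higher and 8 lower, against 23.6% of all genes (10.2% higher and 13.4% lower), and 7 of the 13 tested beta genes were lower and 1 higher. In CM, 14 passed, 6 higher and 8 lower, against 31.9% of all genes (20.4% higher and 11.5% lower), with 6 beta genes lower and 1 higher. The CM and UM groups come from separate arrays, so each comparison has its own samples.

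PCDHB5 read 8.71, 8.91 and 8.96 in HSF1 with UM, against 9.71, 9.80 and 9.87 in H9, a difference of -0.93 (SE 0.0805, adjusted p = 4.84e-07) in UM and -0.92 (SE 0.0805, adjusted p = 4.2e-07) in CM. PCDHB2 read 8.88, 8.91 and 8.90 in HSF1 with UM and 9.61, 9.83 and 9.91 in H9, a difference of -0.89 (SE 0.0772, adjusted p = 5.17e-07) in UM and -0.82 (SE 0.0772, adjusted p = 9.81e-07) in CM. PCDHB15 differed by -0.81 (SE 0.0981, adjusted p = 2.32e-05) in UM and -0.51 (SE 0.0981, adjusted p = 0.000777) in CM, and PCDHB3 by -0.56 (SE 0.0685, adjusted p = 2.69e-05) and -0.38 (SE 0.0685, adjusted p = 0.000536). Smaller differences passed for PCDHB6 (-0.41 in UM and -0.33 in CM) and PCDHB12 (-0.35 and -0.31) in both media and for PCDHB11 in UM (-0.25). PCDHB6, PCDHB11, PCDHB12 and PCDHB3 have probe sets marked for possible cross-hybridisation. PCDHB16 went the other way, at 6.43, 6.33 and 6.43 in HSF1 with UM and 5.34, 5.91 and 5.74 in H9, a difference of 0.73 (SE 0.14, adjusted p = 0.00113) in UM and 0.87 (SE 0.14, adjusted p = 0.000133) in CM.

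PCDH8, whose frog and mouse forms act in paraxial mesoderm, gave the largest difference between HSF1 and H9 among the members called in either medium. It read 7.01, 7.0 and 7.15 in HSF1 with UM, against 4.76, 5.35 and 5.29 in H9, and 6.69, 7.14 and 7.42 in HSF1 with CM, against 5.18, 5.79 and 5.69 in H9. The differences were 1.92 (SE 0.19, adjusted p = 2.14e-06) in UM and 1.53 (SE 0.19, adjusted p = 1.49e-05) in CM. PCDH19 was higher in HSF1 by 0.43 in UM and 0.86 in CM, and PCDH17 was lower, at -0.48 and -0.35. With CM, PCDH7 (1.26), PCDH10 (1.12) and PCDH18 (0.36) were also higher in HSF1 and PCDHGA10 (-0.46) was lower.

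Over the 4 conditions of the inhibitor experiment line differences passed for fewer members. Each line has 1 array per condition there, so the 4 conditions are not replicates of a line. HSF1 minus H1 gave 4 of 37, against 5.13% of all genes: PCDHB5 (-1.97, SE 0.37, adjusted p = 0.0212), PCDHB2 (-1.40, SE 0.30, adjusted p = 0.0334), PCDH19 (1.03, SE 0.19, adjusted p = 0.0204) and PCDHA10 (0.70, SE 0.18, adjusted p = 0.0489). With the ACTB covariate and without H9 0 of these passed, and the PCDHA10 call was lost in 7 of 10 alternatives, with values down to 0.06, and that of PCDHB2 in 4 of 10, with values as small as -0.02. HSF1 minus H9 gave 0 in limma, against 1.66% (0.389% higher and 1.27% lower), with 7 members at an unadjusted p under 0.05. The smallest p there belonged to PCDHB5 (-1.53, SE 0.37) and PCDHB2 (-1.22, SE 0.30) among the lower and PCDHA10 (0.47, SE 0.18) and PCDH12 (0.47, SE 0.18) among the higher. H9 minus H1 gave 0 in limma, against 0.424% (0.0929% higher and 0.331% lower), with 3 members at an unadjusted p under 0.05. These were PCDH19 (0.61, SE 0.19), PCDHB1 (0.39, SE 0.15) and PCDHB14 (-0.57, SE 0.20), and PCDHGA3 (-0.19, SE 0.15) had the next smallest p among the lower.

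The low PCDHB2 and PCDHB5 values of HSF1 lay mostly on feeders. Without the 2 FS arrays of HSF1, 4 members passed between HSF1 and H9, namely PCDH8 (0.85), PCDH1 (-0.80), PCDHB3 (-0.55) and PCDHB2 (-0.46), against 8.22% of all genes in that fit. PCDH8 entered this test only through HSF1 arrays, since all its H9 values (4.07 to 4.88) and H1 values (4.42 to 4.82) were below 5. It passed the level filter only where it was higher, so its call here gives no support. All 4 had the same sign in the medium experiment, where PCDH1 did not pass (-0.05 in UM and -0.05 in CM). For PCDH8 the level itself differed between experiments: HSF1 read 4.02 to 5.30 in the inhibitor experiment and 6.69 to 7.42 in the medium experiment, and H9 read 4.07 to 4.88 and 4.76 to 5.79. The experiments differ in handling that the labels do not describe, and no test was made across them.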

How the data were processed

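Biotin-labelled total RNA from 24 cultures was hybridised to Affymetrix U133 Plus 2.0 arrays. The values are log2 intensities of 54675 probe sets, deposited by the authors in 1 table and made with RMA per the submitters' processing notes. RMA's version is not given in the sources used here. RMA corrects background, usually brings arrays to a common distribution and summarises probes. The array medians differed here (6.09 to 6.35), so quantile and common-median scaling were tried as alternatives. Samples were grouped by title. Of the probe sets, 41097 name 1 gene, 1801 several and 11777 none in the platform annotation, and 41043 of the first kind matched the gene table by Entrez identifier.

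A gene was represented by its probe set with the highest mean over 24 arrays. Genes above 5 on at least 3 of 12 arrays were tested (17218 in the inhibitor experiment, 16572 in the medium experiment) with limma 3.58.1 in R 4.3.3 (lmFit, eBayes with trend), adjusted by Benjamini-Hochberg over all genes tested, threshold 0.05. All 12 arrays of an experiment shared 1 spread. In the inhibitor experiment the replicate number is a cell line, so samples were paired and the line was a block. Same-numbered deviations correlated at -0.01 to 0.92 there, and at -0.27 to 0.13 in the medium experiment, which had no block. For culture system and inhibitor the p-values measure agreement of 3 lines in the first, and in the second they measure replicates of a line. For differences between lines in the first, each line has 1 array in each of 4 conditions. Those p-values set the difference against how unevenly conditions act on these cultures, not against a population of lines. The fits were tested on simulated data. For FS minus FF with DMSO, 46% of log2 changes of 1 and 92% of changes of 2 were recovered, with 1 false call. For CM minus UM in HSF1 the shares were 99% and 100%, with 11 false calls. A change of 1 was therefore often missed in the inhibitor experiment. Precision is limited by how many arrays there are.

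The members, lists, tests and alternatives were chosen with earlier results of these data known. Named are the members past the threshold, up to 12 per comparison by size and the rest by count, range or in short form. Where fewer than 4 passed, the 2 with the smallest p in each direction are named, as are the 3 brightest of each class, and from the lists up to 6 genes past the threshold with the smallest p. The p-values of PCDHB5, PCDHB14 and PCDHB16 in comparisons where they did not pass, PCDH1 and PCDH18 on feeders, and the list markers EOMES, COL1A1, PDGFRA, POSTN, LUM, NIPBL and DAB1 were added after their values were seen. The alternatives were another summary of probe sets, other level filters, quantile or median scaling, an ACTB covariate, array weights, other blocks, and arrays left out.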

Additional observations from a re-analysis of the deposited data

Results flagged for a closer look

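The response to conditioned medium differed between the lines, by a test of the difference itself in limma, for PCDH7 (HSF1 minus H9: 1.30 (SE 0.20), value 1.304), PCDH10 (1.0333) and PCDH18 (0.4584). PCDH7 and PCDH10 passed under all 22 alternatives run. PCDH18 passed under 20 of 22 and did not pass without HSF1_UM replicate 1 or without the 2 UM arrays of H9 with the high ACTB difference. These genes were 8.11% of the 37 tested members, near the 7.73% of all genes that passed. The cause of these differences was not tested.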

How the results depend on the processing

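Among genes named as past the threshold, 1058 of 1218 repeats over 71 gene and comparison pairs kept direction and call, 160 lost the call and 0 reversed. In the feeder comparison PCDH7, PCDH19, PCDHB14 and PCDHB16 passed under every alternative run, with DMSO and with inhibitor, and PCDHB15 under all but 1 (inhibitor, without replicate 1). PCDHB14 and PCDHB16 passed the level filter only through FF arrays and had to differ, so for these genes the repeats add no support. PCDH17 on feeders with DMSO lost its call in 7 of 13, PCDH10 in 6 and PCDHB2 in 5. PCDHA10 and PCDHGB5 with the inhibitor lost theirs in 9 of 13. For conditioned medium in H9, PCDH19 lost its call in 10 of 22 and PCDHB16 in 11. The cause of these losses was not tested. Counts of members that moved by over 1.5 times follow. They are given without the share of all genes in each fit, so they say nothing particular to protocadherins. FS minus FF with DMSO (12) gave 5 with the ACTB covariate, 23 with array weights, 7 with no replicate block and 5 to 14 with a line left out (6 without H1, 5 without H9). With the inhibitor (17) it gave 5 with the ACTB covariate, 11 with no replicate block and 4 to 14 with a line left out (4 without H1, 8 without H9). The share of higher among all called genes with DMSO was 38.7% as deposited, 50.6% after quantile normalization and 31.1% at a common median, and among members 58.3%, 50% and 40%. With the inhibitor those shares were 41%, 49.9% and 33%, and 76.5%, 66.7% and 71.4%. Inhibitor minus DMSO in FF cells (0) gave 10 with array weights, 6 without both FS arrays of HSF1 and 0 to 1 with a line left out. HSF1 minus H9 over 4 conditions (0) gave 4 without both FS arrays of HSF1. HSF1 minus H1 (4) gave 2 after quantile normalization, 0 with the ACTB covariate, 2 with array weights and 0 without H9. H9 minus H1 (0) gave 3 with array weights, 3 without both FS arrays of HSF1 and 2 without HSF1. Conditioned medium in HSF1 (4) gave 7 with the ACTB covariate, 9 with array weights and 10 by probe set, and the medium by line test (3) gave 6 by probe set. With a replicate block in the medium experiment 5 members passed in H9, 4 in HSF1 and 3 in the test between lines. In the medium experiment the samples share only a number. The fit without both UM arrays of H9 with the high ACTB difference, chosen after the data were seen, leaves 1 array in that group, assumed to vary like the others. It gave 4 members in H9, 5 in HSF1, 2 in the test between lines, and 9 and 14 between lines in UM and CM.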
